A study of Mus musculus with 8 samples.

Results

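The genes described here encode ion channels and ion transporters of the sperm plasma membrane outside the CatSper calcium channel, with the soluble adenylyl cyclase that responds to their ions. They were chosen by gene name as *Kcnu1*, *Lrrc52*, *Hvcn1*, *Slc9c1*, *Slc9a5*, *Slc26a8*, *Atp1a4*, *Atp2b4* and *Adcy10*, which are 9 of the 55357 genes quantified. Of these 9, 7 had at least 1 TPM, the transcripts-per-million unit that corrects for transcript length, in at least 1 sample and were tested among the 20187 genes that passed this filter, while *Lrrc52* and *Atp1a4* did not pass it.
RNA came from testis germ cells of C57BL/6 male pups at 15 days after birth. All 8 mice carried the floxed allele as *Mgat2*[F/F]. Control mice (n = 4) had no Cre, and the conditional knockout mice (cKO, n = 4) were *Mgat2*[F/F]:*Stra8*-iCre, in which spermatogonia express the recombinase from 3 days after birth. Each mouse gave 1 library, so p-values measure the spread between mice.

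Sperm leave the testis immotile, and ion fluxes across the tail membrane later start the changes known as capacitation. Proton export raises the internal pH, potassium efflux through the pH-sensitive channel SLO3 makes the membrane potential more negative, and bicarbonate switches on soluble adenylyl cyclase, whose cyclic AMP activates protein kinase A. Sodium and calcium pumps hold the gradients that these steps spend. The transcripts of many such proteins appear in pachytene spermatocytes or later, well before the sperm tail exists, and germ cells of mice of this age reach little further than pachytene.

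The promoters of the 4 genes with the lowest log2 fold changes are shown because these genes were called among replicates 2 to 4, as described further on. Each runs in GRCm39 from 250 bases before to 50 bases after the start of the canonical transcript in GENCODE M39, in the gene's own direction. Capitals mark AACNGNC on either strand, a short form of the site of the meiotic transcription factor MYBL1. Promoters of 14844 protein-coding genes tested served as background.
*Slc9c1*, chr16:45355422-45355721, forward strand: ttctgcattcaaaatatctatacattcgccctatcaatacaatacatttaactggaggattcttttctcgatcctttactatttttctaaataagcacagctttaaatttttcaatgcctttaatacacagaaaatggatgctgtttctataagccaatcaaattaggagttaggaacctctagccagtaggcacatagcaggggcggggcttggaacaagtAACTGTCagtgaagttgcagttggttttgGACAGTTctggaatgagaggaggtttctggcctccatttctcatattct
*Adcy10*, chr1:165312502-165312801, forward strand: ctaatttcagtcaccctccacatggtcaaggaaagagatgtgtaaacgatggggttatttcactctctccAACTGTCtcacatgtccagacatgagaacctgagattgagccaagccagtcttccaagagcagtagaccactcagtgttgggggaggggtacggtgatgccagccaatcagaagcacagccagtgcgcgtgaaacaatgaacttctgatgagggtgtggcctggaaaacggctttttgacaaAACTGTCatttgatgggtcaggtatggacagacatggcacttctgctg
*Slc26a8*, chr17:28910179-28910478, reverse strand: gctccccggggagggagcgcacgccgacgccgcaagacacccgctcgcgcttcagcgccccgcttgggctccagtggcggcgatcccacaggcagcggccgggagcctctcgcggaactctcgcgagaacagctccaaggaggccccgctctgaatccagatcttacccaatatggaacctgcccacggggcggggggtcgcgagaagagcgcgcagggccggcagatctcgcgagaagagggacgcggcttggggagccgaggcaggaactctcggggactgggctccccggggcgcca
*Slc9a5*, chr8:106074960-106075259, forward strand: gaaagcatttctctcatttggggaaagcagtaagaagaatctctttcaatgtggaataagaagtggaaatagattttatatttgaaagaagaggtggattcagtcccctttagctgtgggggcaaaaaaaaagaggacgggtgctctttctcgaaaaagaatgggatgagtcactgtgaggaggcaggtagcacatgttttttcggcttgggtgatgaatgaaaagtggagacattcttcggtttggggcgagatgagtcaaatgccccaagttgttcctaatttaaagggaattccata
At least 1 match of AACNGNC occurred in 33.2% of promoters and at least 2 in 6.86%. *Slc9c1* had 2, beginning at -28 and 2 relative to the start, and *Adcy10* had 2, beginning at -180 and 3. *Kcnu1* also had 2, at -145 and -23, and the promoters of the other 6 genes had none. CCGTTA (3.76% of promoters) and TGACGT (10.7%, both strands for each) were in none of the 9 promoters, and GTTGCC (12.4%) was only in that of *Kcnu1*, where it overlaps the second AACNGNC match. The promoters differed in base composition, from 38.3% GC in *Slc9c1*, with 1.56% of promoters lower, to 71.3% in *Slc26a8*, with 92.1% lower (median of all promoters 57.7%). *Mybl1* itself was at 33.4 to 47.9 TPM in control and 27.7 to 39.8 TPM in cKO libraries, ranges that overlap. A match describes the letters only, and is not a binding site or a cause.

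The libraries held 12584726 to 15907505 expected counts in controls and 14069373 to 15572196 in cKO. The targeted gene *Mgat2* was at 69.8, 31.8, 64.3 and 59.8 CPM (counts-per-million units) in control replicates 1 to 4 and at 35.3, 20.1, 37.6 and 16 CPM in cKO replicates 1 to 4 (log2 fold change -1.05 with a standard error, SE, of 0.36, edgeR adjusted p = 0.47, DESeq2 adjusted p = 0.025). Over 11.6% of its exon *Mgat2* overlaps *Rpl36al* on the other strand, where reads cannot be told apart. *Rpl36al* was at 33.7 to 76.9 CPM in control and 15.3 to 31.4 CPM in cKO (log2 fold change -1.25, SE 0.34, edgeR adjusted p = 0.40, DESeq2 adjusted p = 0.0025). Every cKO library was below every control, as in 3.03% of all genes. Germ cell markers were present, but the samples were not germ cells alone. Summed TPM of 8 Sertoli cell markers was 5341 to 6621 in control and 5565 to 6634 in cKO libraries, with *Clu* alone at 3754 to 4590 TPM, and all 8 were detected. Of the 8 spermatid markers, *Prm1* and *Tnp2* were at 0 in all 8 libraries, but 4 passed the filter. The list summed to 19.6 to 57.2 TPM in control and 16.4 to 26.2 TPM in cKO, highest in replicate 1 of each genotype. The largest part there was *Dbil5*, at 44.3 TPM in control replicate 1 and 18.8 TPM in cKO replicate 1.
Replicate 1 stood apart in both genotypes. The summed TPM of 8 pachytene markers was 1890 in control replicate 1 against 573, 813 and 483 in control replicates 2 to 4. It was 619 in cKO replicate 1 against 232, 245 and 196 in cKO replicates 2 to 4. Most of the sum in replicate 1 was *Ldhc*, at 1208 TPM in control and 361 TPM in cKO. Of these 8 markers, 7 had a log2 fold change below 0 (median -1.23). The smallest differences were those of *Mybl1* (-0.14), *Tbpl1* (-0.42) and *H1f6* (0.04). None of the markers was called by edgeR on all libraries, a test that called 8 genes in all. The paper, which used DESeq2, lists *Piwil1* (-2.05 here) among its top down-regulated genes. Leptotene and zygotene markers summed to 555 to 933 TPM in control and 586 to 736 TPM in cKO, with replicate 1 the lowest of each genotype. Results on replicates 2 to 4 alone, a subset chosen after the data were seen, are therefore given beside those on all 8 libraries. In bulk RNA, fewer cells of a type and less RNA per cell cannot be told apart.

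**Figure D1:**
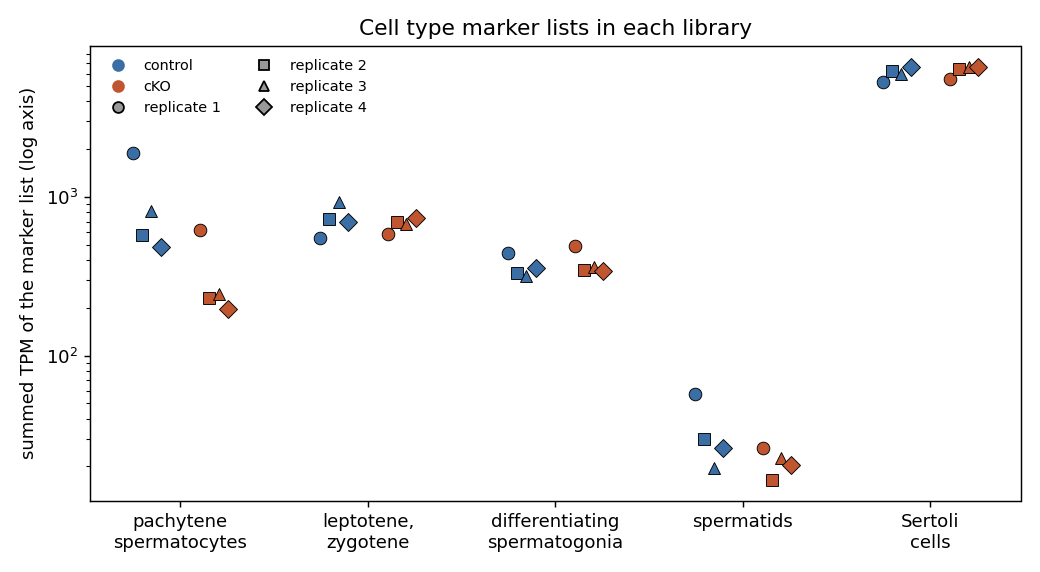
Summed TPM (log axis) of marker lists for 4 germ cell stages and for Sertoli cells, 1 point per library, with color for genotype and shape for replicate number. Replicate 1 had the highest pachytene sum within each genotype, 1890 TPM in control and 619 TPM in cKO, and Sertoli sums stayed between 5341 and 6634 TPM.

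All 7 genes tested had a log2 fold change (cKO over control) below 0, as did 48.6% of all genes. Their median was -0.70, against 0.01 over all genes. All 7 stayed below 0 under the other normalizations, but *Hvcn1* changed sign when single libraries were left out. The lowest values were those of the proton exchanger *Slc9c1* (-2.13) and of the cyclase *Adcy10* (-1.09), followed by *Slc9a5* (-0.86) and *Slc26a8* (-0.70). No member was called by edgeR's quasi-likelihood test at an adjusted p of 0.05, a test that called 0.0396% of all genes. An unadjusted p under 0.05 was reached by 3 members, *Slc9a5*, *Slc26a8* and *Atp2b4*, and by 8.9% of all genes. DESeq2 called 1 member, *Slc9a5*, and 1.5% of all genes (1.41% in the lower direction). Among replicates 2 to 4 edgeR called 4 members lower, *Slc9c1*, *Adcy10*, *Slc9a5* and *Slc26a8*, against 3.78% of all genes, and DESeq2 called the same number of members lower, against 4.12%.

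**Figure D2:**
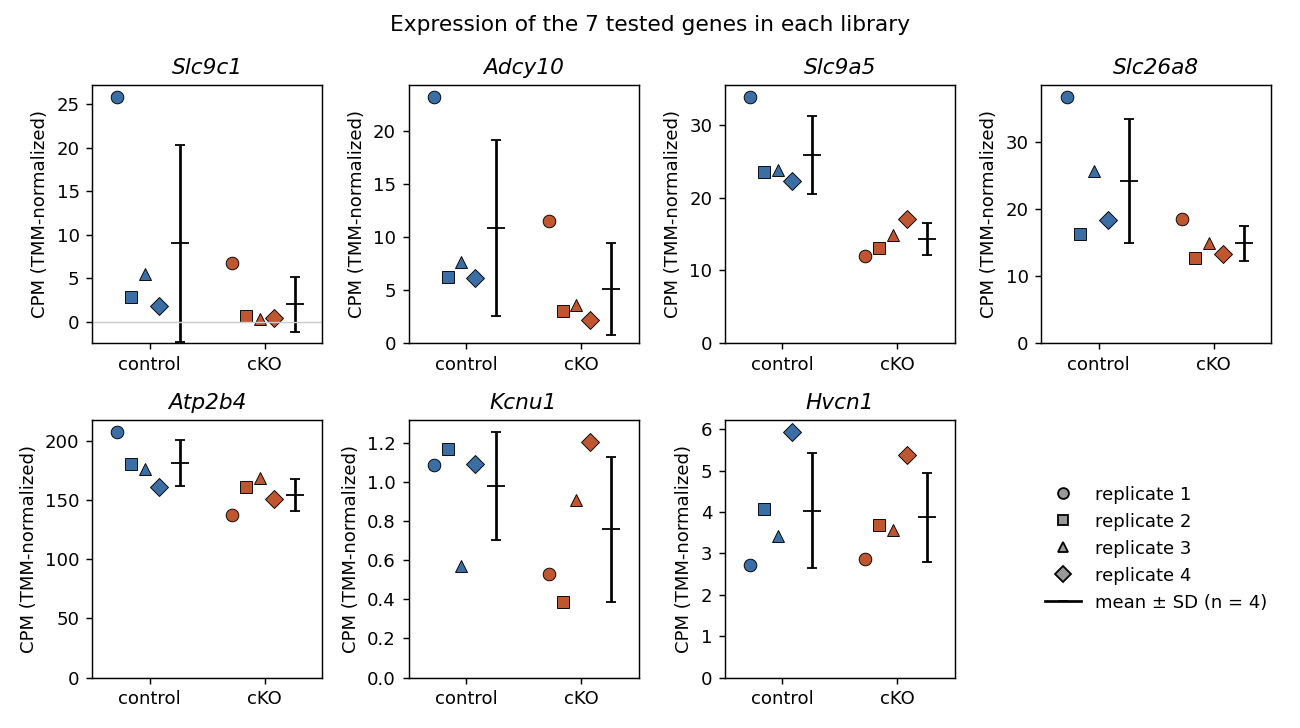
TMM-normalized CPM of the 7 tested genes in each library (color for genotype, shape for replicate number), with the mean and SD of 4 mice beside the points. *Slc9c1*, *Adcy10* and *Slc26a8* were highest in replicate 1 of both genotypes, and in *Slc9a5* every cKO library was below every control library.

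Transcripts of the proton transport genes showed the widest range of differences. *Slc9c1* (ENSMUSG00000033210, chr16:45355672-45427364 of GRCm39, forward strand, 28 exons) encodes the sperm sodium-proton exchanger, a protein with a voltage sensor and a cyclic nucleotide-binding domain. Its CPM in control replicates 1 to 4 was 25.8, 2.85, 5.50 and 1.87. In cKO replicates 1 to 4 it was 6.77, 0.647, 0.279 and 0.496. Replicate 1 was far above its own group in each genotype, 7.57 times the mean of the others in control and 14.3 times in cKO, so that cKO replicate 1 exceeded 3 of the 4 controls. The group means were 9.01 ± 11.3 CPM (SD, n = 4) and 2.05 ± 3.15 CPM (SD, n = 4). The log2 fold change of -2.13 had an SE of 1.31 (edgeR adjusted p = 0.67, and p = 0.114 in a two-sided exact permutation test over the 70 assignments of 4 and 4 mice, in which 0.0286 is the smallest possible). Leaving out control replicate 1 moved it to -0.72, and leaving out cKO replicate 1 to -4.21, neither called.
Among replicates 2 to 4 the genotypes did not overlap for *Slc9c1*, with 1.87 to 5.50 CPM in control and 0.279 to 0.647 CPM in cKO. The log2 fold change there was -2.83 (SE 0.46, edgeR adjusted p = 4.7e-05, 3.47e-05 with DESeq2). These cKO values rest on 10, 4 and 7 counts, near the floor of 3 counts taken as the smallest signal.

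*Slc9a5* (ENSMUSG00000014786, chr8:106074801-106097709, forward strand, 16 exons) encodes the sodium-proton exchanger NHE5, best known from neurons. Its CPM was 33.9, 23.6, 23.8 and 22.3 in control replicates 1 to 4. In cKO replicates 1 to 4 it was 12, 13.1, 14.9 and 17.1. This was the one member whose 4 cKO libraries all lay below the 4 controls, a separation that 3.03% of all genes had in the same direction. In contrast to *Slc9c1*, replicate 1 was the highest control but the lowest cKO library. The means were 25.9 ± 5.35 CPM (SD, n = 4) and 14.3 ± 2.22 CPM (SD, n = 4), a log2 fold change of -0.86 (SE 0.16), or 55.2% of the control level. The difference exceeded the spread within either genotype (two-sided exact permutation test, p = 0.0286), but its edgeR adjusted p over all genes was 0.14, with an unadjusted p of 0.000204 that ranked 29th.
The paper, which used DESeq2, lists *Slc9a5* among genes significantly higher in its control germ cells. Here the call of *Slc9a5* depended on the test. Its adjusted p was 0.00089 with DESeq2 and 0.0195 with edgeR without an expression filter. Over all other settings it ran from 5.94e-05 to 0.28, and from 0.089 to 0.53 when 1 library was left out. Among replicates 2 to 4 the log2 fold change was -0.63 (SE 0.13, edgeR adjusted p = 0.0013), and the genotypes again did not overlap. GENCODE M39 places the antisense RNA *Gm64656* over 12.7% of the *Slc9a5* exons, and without strand its reads could not be told from those of *Slc9a5*.

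*Hvcn1* (ENSMUSG00000064267, chr5:122344867-122382736, forward strand, 7 exons) encodes the voltage-gated proton channel, which is also abundant in leukocytes. Its CPM was 2.72, 4.08, 3.41 and 5.93 in control replicates 1 to 4. In cKO replicates 1 to 4 it was 2.85, 3.69, 3.56 and 5.39. The groups overlapped over nearly their whole range, and replicate 1 was the lowest library and replicate 4 the highest in both. The log2 fold change was -0.06 (SE 0.29, edgeR adjusted p = 0.98). Its sign turned to 0.06 without cKO replicate 1 and to 0.19 without control replicate 4. The level is uncertain because 43.9% of the *Hvcn1* exon bases overlap *Tctn1*, a gene on the opposite strand at 67.6 to 79.2 CPM in control and 47.7 to 62.5 CPM in cKO. Leukocyte markers summed to 14.2 to 22.2 TPM in control and 19.5 to 27.6 TPM in cKO, and their part in the *Hvcn1* signal was not tested.

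The transcript level of *Adcy10* followed the pattern of *Slc9c1*. *Adcy10* (ENSMUSG00000026567, chr1:165312752-165404344, forward strand, 34 exons) encodes soluble adenylyl cyclase, which is activated by bicarbonate rather than by G proteins. Its CPM was 23.2, 6.22, 7.65 and 6.17 in control replicates 1 to 4. In cKO replicates 1 to 4 it was 11.5, 3.04, 3.56 and 2.13. Replicate 1 was 3.48 times the mean of the other controls and 3.95 times the mean of the other cKO libraries. The means were 10.8 ± 8.30 CPM (SD, n = 4) and 5.05 ± 4.33 CPM (SD, n = 4), and cKO replicate 1 lay above 3 of the 4 controls. The log2 fold change was -1.09 (SE 0.69, edgeR adjusted p = 0.67, and p = 0.143 in the two-sided exact permutation test). It was -0.40 without control replicate 1 and -1.89 without cKO replicate 1, again not called.
Among replicates 2 to 4, *Adcy10* was at 6.17 to 7.65 CPM in control and 2.13 to 3.56 CPM in cKO, without overlap. The log2 fold change was -1.20 (SE 0.25, edgeR adjusted p = 0.0016, 0.0022 with DESeq2). This separation held for CPM but not for TPM, where control replicate 2 was at 2.15 and cKO replicate 3 at 2.19. The TPM given per CPM of *Adcy10* ranged from 0.310 to 0.615 between libraries, a 1.98-fold spread, and RSEM estimates the transcript length behind TPM in each library.

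Anion transport was represented by *Slc26a8* (ENSMUSG00000036196, chr17:28856752-28910244, reverse strand, 20 exons), which encodes a testis anion transporter found at the annulus of the sperm tail. Its CPM was 36.7, 16.2, 25.6 and 18.4 in control replicates 1 to 4. In cKO replicates 1 to 4 it was 18.5, 12.7, 14.9 and 13.3. The only overlap came from cKO replicate 1, which was slightly above control replicates 2 and 4. The means were 24.2 ± 9.22 CPM (SD, n = 4) and 14.9 ± 2.61 CPM (SD, n = 4), a log2 fold change of -0.70 (SE 0.25, edgeR adjusted p = 0.45, 0.14 with DESeq2). The two-sided exact permutation test gave p = 0.0857. Without control replicate 1 the log2 fold change was -0.43, and it was not called when any 1 library was left out.
Among replicates 2 to 4, *Slc26a8* was at 16.2 to 25.6 CPM in control and 12.7 to 14.9 CPM in cKO, with a log2 fold change of -0.56 (SE 0.15, edgeR adjusted p = 0.0226, 0.0497 with DESeq2). On the TPM scale all 8 libraries were separated by genotype, with 14.9 to 26.7 TPM in control and 7.93 to 10.7 TPM in cKO. This separation did not hold for CPM, where cKO replicate 1 lay above control replicates 2 and 4. TPM per CPM of *Slc26a8* ranged from 0.577 to 0.955 between libraries, a 1.66-fold spread. The share of all genes separated on TPM is not given, and the 3.03% in this direction is a share on CPM. The limma test of log2(TPM + 1) still did not call the gene (difference -0.81 on that scale, adjusted p = 0.31).

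Of the 7 genes tested, 4 had no overlap between genotypes among replicates 2 to 4, as did 10.6% of all genes in the same direction. These were *Slc9c1*, *Adcy10*, *Slc26a8* and *Slc9a5*, while *Kcnu1*, *Hvcn1* and *Atp2b4* overlapped. The same 4 were called on these libraries, so the call and the lack of overlap are not separate results. *Slc9c1*, *Adcy10* and *Slc26a8* were also highest in replicate 1 of both genotypes, which held for 22.2% of all genes. The pachytene marker sums given above were likewise higher in replicate 1 and lower in cKO, and their part in these differences was not tested.

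**Figure D3:**
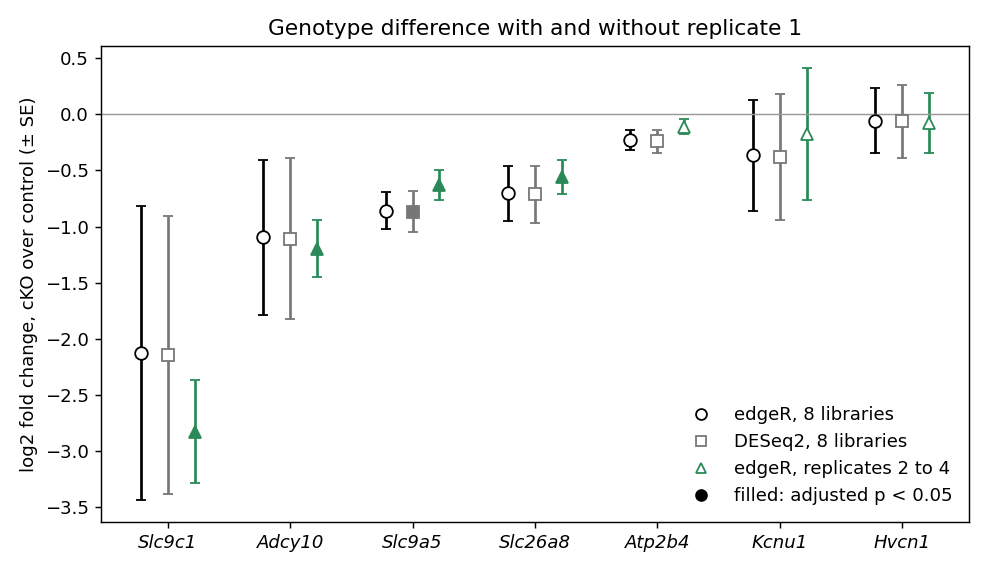
Log2 fold change of cKO over control with its standard error for the 7 tested genes, by edgeR and DESeq2 on 8 libraries and by edgeR on replicates 2 to 4 (filled symbols, adjusted p under 0.05). SEs of *Slc9c1* were 1.31 with all libraries and 0.46 with replicates 2 to 4, where *Slc9c1*, *Adcy10*, *Slc9a5* and *Slc26a8* were called.

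Of the ion pumps among the members only *Atp2b4* was tested, and it differed less than *Slc9c1*, *Adcy10*, *Slc9a5* and *Slc26a8*. *Atp2b4* (ENSMUSG00000026463, chr1:133627195-133728923, reverse strand, 21 exons) encodes PMCA4, the plasma membrane calcium pump that clears calcium from sperm and that many somatic cells also express. Its CPM was 208, 180.2, 177 and 161 in control replicates 1 to 4. In cKO replicates 1 to 4 it was 137, 161, 169 and 151. Of the 16 pairs of a cKO and a control library, 15 had the cKO library lower, and the exception was cKO replicate 3 against control replicate 4. The means were 181 ± 19.3 CPM (SD, n = 4) and 154 ± 13.5 CPM (SD, n = 4), a log2 fold change of -0.23 (SE 0.09, edgeR adjusted p = 0.48). The two-sided exact permutation test gave p = 0.0571. Among replicates 2 to 4 the log2 fold change was -0.11 (SE 0.06, edgeR adjusted p = 0.49), so the difference was smaller without replicate 1 and not called in either set.
*Atp1a4* (ENSMUSG00000007107, chr1:172051080-172085981, reverse strand, 23 exons) encodes the sodium pump isoform of sperm. Its counts were 5, 0, 5 and 1 across the 4 controls and 5, 0, 0 and 0 across the 4 cKO libraries. Its highest level was 0.16 TPM, which is below the filter. The means of 0.183 CPM in control and 0.083 CPM in cKO do not exceed 3 counts, the smallest signal (0.189 to 0.238 CPM), so no fold is given and no difference was detectable at this depth.

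Potassium efflux was represented by transcripts near the limit of detection. *Kcnu1* (ENSMUSG00000031576, chr8:26339651-26427967, forward strand, 27 exons) encodes the pore-forming subunit of SLO3. Its counts were 16, 18, 9 and 14 across controls 1 to 4 and 8, 6, 13 and 17 across cKO replicates 1 to 4. These counts correspond to 0.569 to 1.17 CPM in control and 0.388 to 1.21 CPM in cKO. The groups overlapped, and cKO replicate 4 was the highest of the 8 libraries. The log2 fold change was -0.37 (SE 0.49, edgeR adjusted p = 0.86). TPM per CPM of *Kcnu1* ranged from 0.763 to 2.60, so its TPM order, in which control replicate 4 was highest at 2.84 TPM, differed from its CPM order.
*Lrrc52* (ENSMUSG00000040485, chr1:167271858-167294349, reverse strand, 2 exons) encodes the auxiliary subunit that shifts SLO3 gating. It had 0 counts in all 8 libraries, which allows up to 0.189 to 0.238 CPM depending on the library. That limit is below the lowest CPM of *Kcnu1*, 0.388, and covers counting error only.

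Levels were compared between genes by TPM, which divides by transcript length. The libraries were not of germ cells alone, so these are levels in a mixed preparation. In control libraries the order was *Atp2b4* (37.8 ± 4.19 TPM, SD, n = 4), *Slc26a8* (18.6 ± 5.49), *Slc9a5* (11.5 ± 2.15), *Slc9c1* (3.88 ± 4.79), *Adcy10* (3.84 ± 2.28), *Hvcn1* (2.54 ± 0.931), *Kcnu1* (1.5 ± 1.03), *Atp1a4* (0.0875 ± 0.0797) and *Lrrc52* (0). The ranges of the first 3 did not overlap their neighbours among themselves, although *Slc26a8* (lowest 14.9 TPM) and *Slc9a5* (highest 14.7 TPM) nearly met. Those from *Slc9a5* to *Kcnu1* each overlapped the next, and *Kcnu1* stood above *Atp1a4*. The place of *Slc9c1* rested on control replicate 1, since without that library its mean was 1.5 TPM, below *Adcy10* at 2.72 TPM and *Hvcn1* at 2.84 TPM. In cKO libraries *Slc9c1* came after *Kcnu1*, at 0.885 ± 1.34 TPM (SD, n = 4) against 0.955 ± 0.533 TPM (SD, n = 4), values whose ranges overlapped. Without cKO replicate 1 these means were 0.217 TPM for *Slc9c1* and 1.11 TPM for *Kcnu1*.
Of the sperm genes, 3 were set against a more broadly expressed relative within the same library, as the log2 ratio of TPM. The ratio of *Slc26a8* to *Slc26a6*, an epithelial anion exchanger, was 2.02, 1.31, 1.72 and 1.32 across controls 1 to 4 and 0.64, 0.93, 0.76 and 0.83 in cKO replicates 1 to 4. It was lower in every cKO library than in every control, a separation for which no share over all genes is given. The separation rests on TPM, and the CPM of *Slc26a8* overlapped between genotypes, with cKO replicate 1 at 18.5 and control replicate 2 at 16.2. *Slc26a8* was above *Slc26a6* in all 8 libraries.
The other pairs shown overlapped between genotypes, with the member below its relative. The ratio of *Atp2b4* to *Atp2b1* had a mean of -0.79 ± 0.22 (SD, n = 4) in control and -1.10 ± 0.19 (SD, n = 4) in cKO. That of *Kcnu1* to *Kcnma1* was -2.62 ± 1.16 (SD, n = 4) and -3.03 ± 0.82 (SD, n = 4). *Kcnma1* itself was at 7.68 ± 1.37 TPM (SD, n = 4) in control and 7.03 ± 1.38 TPM (SD, n = 4) in cKO. None of these 3 relatives was called by edgeR or DESeq2.

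**Figure D4:**
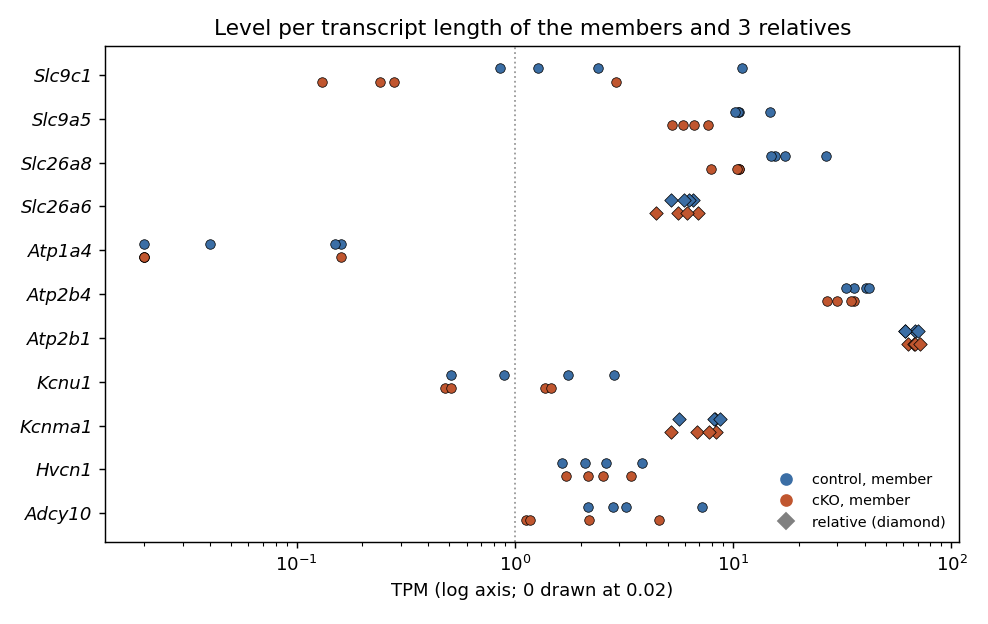
TPM of 8 members (circles) and 3 relatives (diamonds) in each library on a log axis, with control in blue and cKO in orange, values of 0 drawn at 0.02 and a dotted line at the filter of 1 TPM. *Slc26a8* lay above *Slc26a6* in all 8 libraries, and *Atp1a4* reached at most 0.16 TPM.

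The rest of the pathway was followed in lists of related genes. Outside the 9 members and CatSper, 81 relatives were tested. No relative was called by edgeR or DESeq2, 2 had an unadjusted p under 0.05 with lower and 2 with higher levels in cKO (6.28% and 2.62% of all genes), and the median log2 fold change was 0.04. Of the 6 sodium-proton exchangers tested beside *Slc9c1* and *Slc9a5*, 3 were below 0. *Slc9b1*, another exchanger of sperm, had a log2 fold change of -0.99 (adjusted p = 0.56 with edgeR) and *Slc9a7*, an exchanger of the trans-Golgi network, 0.56 (adjusted p = 0.48). *Slc9a7* was the one relative of the 81 with every cKO library above every control, as had 2.47% of all genes.
Of the 9 genes of the SLC26 family and *Cftr* tested beside *Slc26a8*, 3 were below 0. The chloride channel *Cftr* had -0.35 and *Slc26a1*, a sulfate transporter, 0.46. Among 11 sodium pump subunits, 3 were below 0. Among 5 calcium pumps, 1 was below 0, *Atp2a2* of the endoplasmic reticulum at -0.16. None of these passed the test over all genes.
The cyclic AMP genes were similar. Of 8 membrane-bound adenylyl cyclases, 3 were below 0, and the one with the smallest p, *Adcy1*, was at 0.48 (adjusted p = 0.62 with edgeR). Of 18 genes of protein kinase A and its partners, 9 were below 0, and the phosphodiesterase *Pde8a* had the smallest p at -0.73 (adjusted p = 0.59). Of 10 genes of bicarbonate transport and carbonic anhydrases, 4 were below 0, with *Slc4a8*, a sodium-dependent bicarbonate exchanger, at -0.38 (adjusted p = 0.65). Both potassium channel relatives tested, *Kcnt1* at 0.27 and *Kcnma1* at -0.05, were not called.
Among 12 other sperm channels 7 were below 0. *Trpc2*, a cation channel, had -4.44 (SE 1.88, unadjusted p = 0.046 with edgeR), a value that rests on at most 59 counts in a library. *Pkdrej*, a polycystin-related protein of the sperm head, had -1.49 (adjusted p = 0.60). By contrast, all 11 CatSper genes tested were below 0, with a median of -1.60 against -0.70 for the 7 members. One of them, *Catsperg2*, was called (log2 fold change -1.60, SE 0.20, edgeR adjusted p = 0.0346), and DESeq2 called 5. The difference between the lists was not tested.

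**Figure D5:**
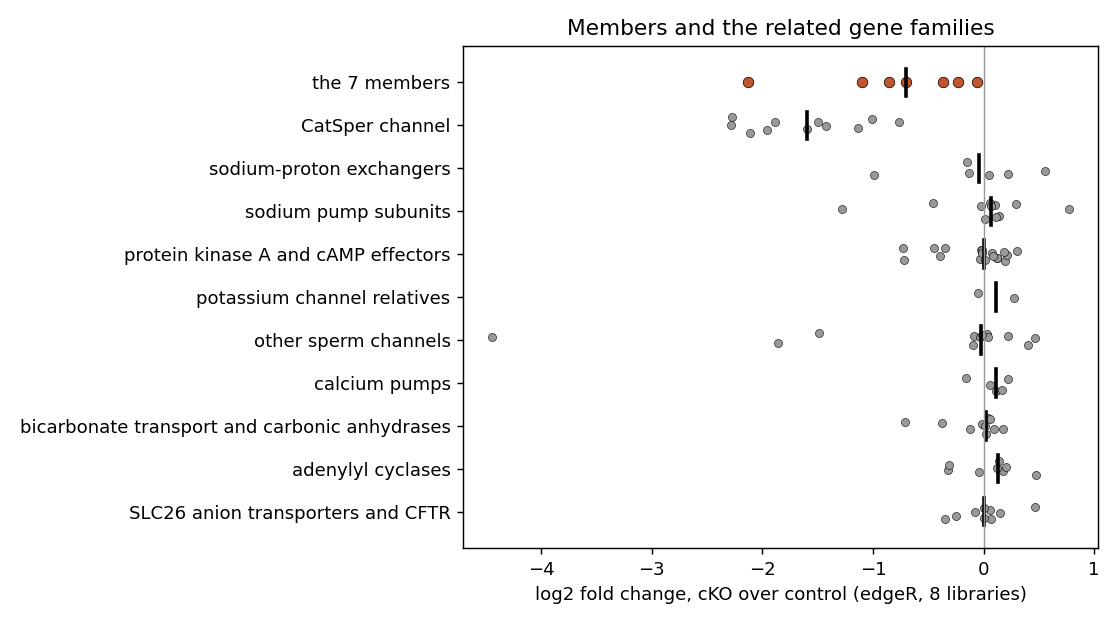
Log2 fold change of cKO over control (edgeR, 8 libraries) for the 7 members and for the tested genes of 10 related lists, with the median of each list as a bar. Medians were -0.70 for the members and -1.60 for CatSper, and the 81 other relatives had a median of 0.04.

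The members did not vary as 1 block across the 8 libraries. Pearson's r between a gene's log2 CPM and the mean of the tested members, which includes the gene itself, was 0.94 for *Slc9c1* and *Slc26a8*, 0.92 for *Adcy10*, 0.81 for *Slc9a5*, 0.62 for *Atp2b4*, 0.30 for *Kcnu1* and -0.40 for *Hvcn1* (n = 8 libraries). Outside the members, the protein-coding genes closest to that mean were *Wdr66* (r = 0.995), *Morn5* (0.992), *Bscl2* (0.991), *Fam234b* (0.991) and *Dnah8* (0.989). These values describe 8 libraries in which genotype and replicate 1 are shared by all genes.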

How the data were processed

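The authors prepared non-stranded polyA libraries, aligned paired reads of 150 bases to mm39 with STAR 2.7.9a and quantified genes of an Ensembl annotation with RSEM 1.3.3, and their own test was DESeq2 1.38.3. They deposited RSEM expected counts, unnormalized, and TPM, scaled within each library for effective transcript length. Of the expected counts above 0, 15.2% were not whole, and all were rounded. As in the study, a gene was kept if any sample reached a TPM of 1.
Genotypes were compared over 8 libraries with edgeR 4.0.16 (TMM, robust quasi-likelihood F-test, no covariate) and Benjamini-Hochberg adjustment over 20187 genes. A gene with adjusted p under 0.05 is described as called. CPM are TMM-normalized, and standard errors of edgeR fold changes come from the fold change and its F statistic. Exact permutation tests used log2 CPM over 70 assignments. TPM ratios used a pseudocount of 0.01. Alternatives were DESeq2 1.42.0, its size factors in edgeR, library totals, no filter, filterByExpr, limma-trend (limma 3.58.1) on log2(TPM + 1), the replicate number as a block and leaving out each library. Replicates 2 to 4 alone and DESeq2 with the block were added after the data were seen. R 4.3.3 and Python 3.11.15 were used.
Positions, overlaps and promoters came from GRCm39 with GENCODE M39, in which 20075 of the 20187 genes were found, and which is not the annotation of the counts. The members, the gene lists and the tests were chosen with earlier results of these data known. Named genes are *Mgat2*, the members, the paired relatives, called genes of the lists or up to 3 per list with the smallest p, marker genes where a list moved with a result, and the 5 genes closest to the mean of the members. *Rpl36al*, *Tctn1* and *Gm64656* are named for their overlap with these genes. A floor of 3 counts was taken as the smallest signal. Some results of the listed rules are not reported here.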

Additional observations from a re-analysis of the deposited data

Results flagged for a closer look

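CPM and TPM of each member with counts and of *Mgat2* were examined for a library far from the 3 others of its genotype. Of the 36 groups of values examined, 12 had one, and chance alone gives about 1 in 20, or 1.8. CPM and TPM of a gene are not independent, so the 12 are fewer separate events.
Most were in replicate 1. *Slc9c1* was high in control replicate 1, at 25.8 CPM and 11.0 TPM, with the next control at 5.50 CPM and 2.39 TPM. It was also high in cKO replicate 1, at 6.77 CPM and 2.89 TPM, with the next cKO library at 0.647 CPM and 0.28 TPM. *Adcy10* was high in control replicate 1 at 23.2 CPM and in cKO replicate 1 at 11.5 CPM. *Slc9a5* was high in control replicate 1, at 33.9 CPM and 14.7 TPM, but its cKO replicate 1 did not stand apart. *Atp1a4* in cKO replicate 1, at 0.332 CPM and 0.16 TPM, rests on 5 counts against 0 in the other cKO libraries.
The others were single low values. *Kcnu1* was low in control replicate 3 at 0.569 CPM, which is 9 counts, with the next control at 1.09 CPM. *Slc26a8* was low in cKO replicate 4 at 7.93 TPM, with the next cKO library at 10.4 TPM, while its CPM there did not stand apart.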

How the results depend on the processing

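The median log2 fold change of the members stayed below 0 in every setting run, from -0.71 to -0.56, and from -0.86 to -0.40 when 1 library was left out. Against 8 genes and no member called, DESeq2 called 302 genes and 1 member, edgeR without an expression filter 35 genes and 1 member, library totals 17 genes, and filterByExpr and limma-trend 0 genes. With replicates 2 to 4, edgeR called 855 genes and 4 members and DESeq2 899 genes and 4 members. Leaving out 1 library gave 0 to 32 genes, 0 without cKO replicate 3, cKO replicate 4 or control replicate 3 and 32 without control replicate 4, and no member in any case.
The numbers 1 to 4 occur in both genotypes, but deviations of same-numbered libraries from their group means correlated at 0.53, 0.14, 0.04 and 0.20 for replicates 1 to 4 (mean 0.23, against -0.07 for different numbers, and 0.13 against 0.12 among replicates 2 to 4), so the number was not taken as a pairing, and 4 of 8 libraries correlated best with their own number. With the replicate block edgeR called 1464 genes (6.45% of all genes lower in cKO) and 4 members, and DESeq2 with the replicate block 1223 genes (5.66% lower) and 4 members, each lower in cKO. The members were *Slc9c1* (edgeR adjusted p = 6.97e-06), *Adcy10* (5.65e-05), *Slc26a8* (0.00059) and *Slc9a5* (0.00066). The block in edgeR also called 4 of the 8 pachytene markers, 9 of the 11 CatSper genes and 5 of the 81 relatives lower, the last being *Slc9b1*, *Pde8a*, *Pde10a*, *Trpc2* and *Aqp9*, of which *Aqp9* is named after its values were seen.
When each member's fold change was compared with its value under every other setting, 106 values kept direction and call, 18 became called and 2 changed sign. Both sign changes were in *Hvcn1*, to 0.06 without cKO replicate 1 and 0.19 without control replicate 4, in a range from -0.26 to 0.19 over the libraries left out. Mean TPM of *Slc9c1* moved from 3.88 to 1.5 without control replicate 1 and from 0.885 to 0.217 without cKO replicate 1. Depth limits *Kcnu1*, *Atp1a4* and *Lrrc52* and the cKO values of *Slc9c1*. With 4 mice per genotype the exact permutation test cannot go below p = 0.0286.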
